A study of Mus musculus
Mus spretus with 18 samples.

Results

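Collagens are the most abundant proteins of the extracellular matrix. Each molecule is a triple helix of α chains, built from Gly-X-Y triplets, in which glycine recurs at a fixed spacing. Fibrillar collagens (types I, II, III, V, XI, XXIV and XXVII) form banded fibrils, type IV builds the sheets of basement membranes, type VI forms beaded filaments, and further types sit on fibrils, in cell membranes or in short-chain networks. In vertebrate fibrillar genes the helix is encoded by many short exons whose lengths are multiples of a triplet, so that an exon can be left out without a shift of the reading frame.

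The collagen genes were taken as the autosomal genes whose symbol reads Col, a number, the letter a and a number. The expression table held 42 of them among 36604 autosomal genes. *Col4a3bp* also begins with these letters, but encodes a ceramide transfer protein and was left out, and the X-linked *Col4a5* and *Col4a6* were outside the choice. In the tables of skipped exon (SE) events, 40 collagen genes had 540 of 121350 events, which describe 466 exons of 83492. An SE event compares reads over the junctions that include an exon with reads over the junction that skips it. PSI, the percent spliced in, is the share of inclusion after correction for the length of both forms, and is written here from 0 to 1.

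The libraries came from F1 hybrids of a female C57BL/6J, a laboratory strain, and a male SPRET/EiJ, an inbred strain of *Mus spretus*. Cerebral cortex, heart, kidney, lung, spleen and liver were from female hybrids aged 8 weeks. The study describes these organs as from the same 2 animals, with the liver data taken from an earlier study by its authors. For liver, organ and data set thus cannot be told apart. Embryonic stem cells (ESC) were 2 separate clones grown in 2i and LIF. Fibroblasts derived from the hybrid were treated for 4 h with 0.1 μM pladienolide B (PladB), an inhibitor of the splicing factor SF3B1, or with the same amount of its solvent DMSO. Each of the 9 groups had 2 libraries, 18 in all. The liver labels name other substrains than the remaining labels, and the fibroblast labels do not say whether the replicates were separate cultures. If they were not, their p-values measure technical spread.

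SE junction reads per library numbered from 45055286 to 128494506 in tissues and from 121091735 to 144154268 in fibroblasts. Collagen events took between 12664 and 275302 of them in tissues and between 3711109 and 4970244 in fibroblasts, so the fibroblast values rest on far more reads. Markers of each organ were highest in the library of that name. The lung libraries also held heart muscle transcripts, with *Myh6* at 167 and 127 TPM against 12122 and 11969 in heart. The ESC clones stood apart from each other, with 21.7% of expressed genes more than 2-fold apart against 1.19% to 4.06% in the other groups.

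Expression was highest by far in fibroblasts and lowest in cortex and liver among the organs. TPM, the share of a transcript in its library, is scaled for gene length, so sums over genes can be compared. All 42 collagen genes together gave 7515 and 7216 TPM in the DMSO fibroblasts, 2380 and 2694 in lung, 1079 and 1197 in heart, 867 and 1023 in kidney, 693 and 663 in spleen, 362 and 396 in liver, 364 and 366 in cortex, and 697 and 353 in the ESC clones. Lung was the highest of the 7 tissues for 14 of the 42 genes, cortex and ESC for 7 each, spleen for 6, heart for 4, kidney for 3 and liver for 1.

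**Figure D1:**
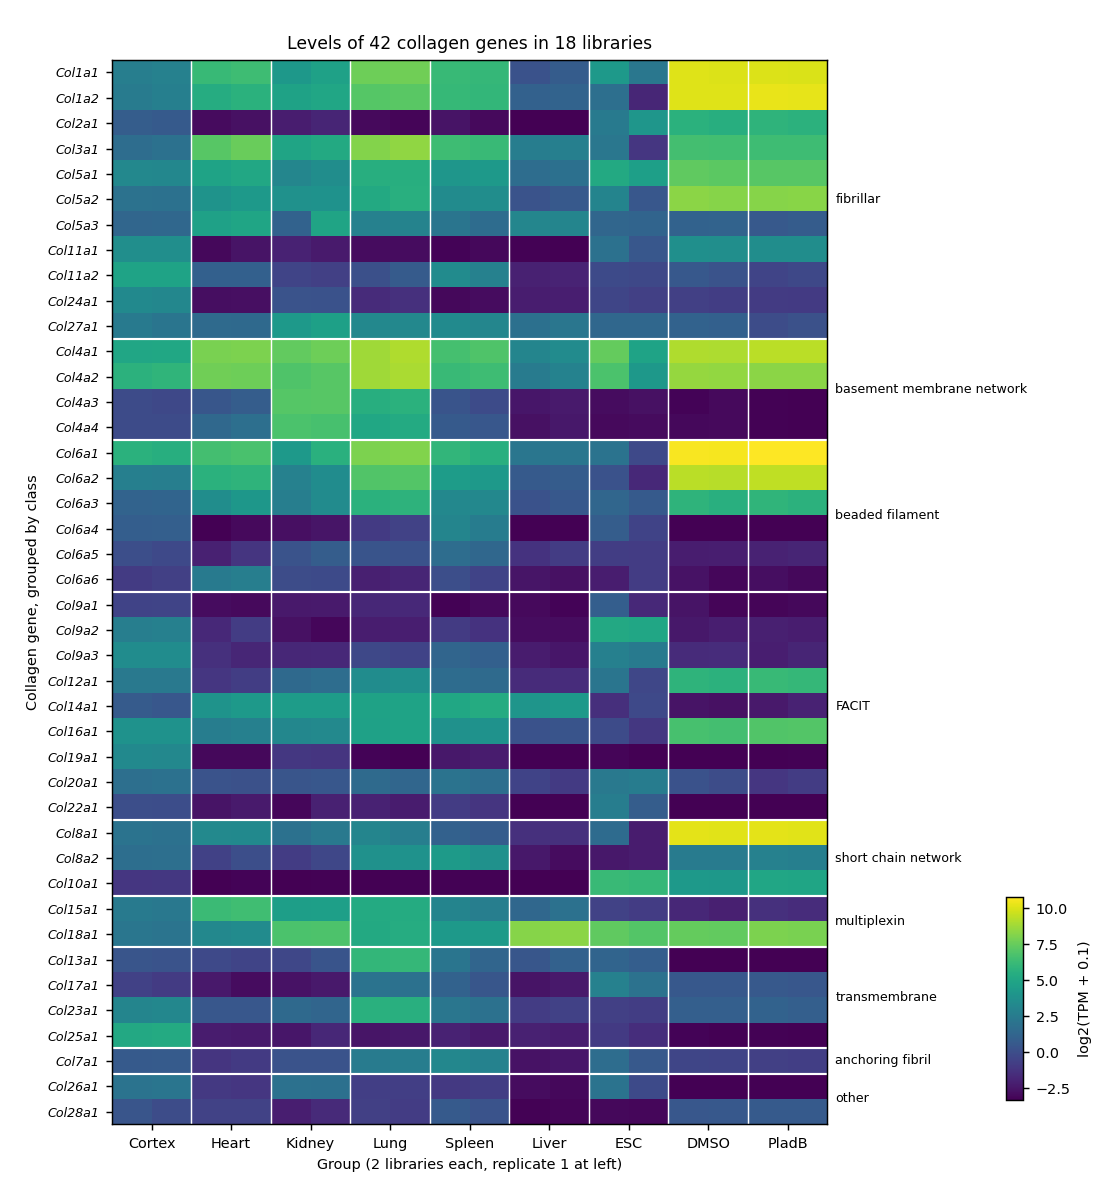
Levels of the 42 collagen genes as log2(TPM + 0.1), with 1 row per gene, grouped by class, and 2 columns per group (replicates 1 and 2). Fibroblasts (DMSO, PladB) hold the highest values for *Col1a1*, *Col1a2*, *Col6a1*, *Col6a2* and *Col8a1*. *Col4a3* and *Col4a4* are high in kidney and lung, *Col25a1* stands out in cortex and *Col18a1* in liver, and the ESC columns differ from each other.

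Levels were tested with limma on log2(TPM + 0.1), which understates changes of low genes, with each tissue set against the mean of the other 6. Of 21284 autosomal genes tested, 41 were collagens, as *Col9a1* was below 1 TPM in all but 1 library. Between tissues nearly everything differed: 41 of 41 collagen genes and 99.4% of all genes passed an adjusted p of 0.05 (limma F test, Benjamini-Hochberg). Counts are therefore given beside those of all genes.

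Lung had 26 collagen genes higher and 11 lower, and of all genes 72.7% were called, 43.3% higher and 29.4% lower. The median log2 difference in lung was 1.77 for collagens and 0.18 for all genes. Liver had 2 higher and 38 lower, beside 91.4% of all genes called, 10.7% higher and 80.8% lower, with medians of −2.63 and −1.51. For heart the counts were 17 higher and 22 lower (80.1% of all genes called, 19.4% higher and 60.7% lower), and for kidney 13 and 16 (69%, 30.6% and 38.4%). For spleen they were 19 and 12 (79.7%, 45.1% and 34.7%), for cortex 18 and 15 (82.7%, 50.8% and 31.9%), and for ESC 14 and 22 (84.2%, 48.6% and 35.6%). These shares over all genes are the background against which each collagen count above stands. They do not apply to the counts that follow, for which no share over all genes is given. Setting the median of all genes equal in each library moved these log2 differences by −0.86 to 1.77, depending on the comparison, and turned the split to 15 higher and 21 lower in cortex, 19 and 16 in heart, and 8 and 24 in liver.

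The fibrillar chains of types I and III, which make up most of the collagen of connective tissue, were highest in lung among the tissues. *Col1a1* read 202 and 206 TPM in lung, 72.1 and 85.04 in heart, 71.7 and 67.2 in spleen, 18.2 and 26.8 in kidney, 6.30 and 7.27 in cortex, 1.08 and 1.64 in liver, and 19.6 and 4.77 in the ESC clones. *Col1a2*, its partner chain, ran from 131 and 144 TPM in lung to 1.98 and 2.11 in liver, with 0.19 in the second ESC clone. *Col3a1* followed with 288 and 338 in lung, 139 and 183 in heart, 83.7 and 73.5 in spleen, 29.7 and 37.8 in kidney, 6.22 and 6.66 in liver, 3.16 and 3.68 in cortex and 4.79 and 0.37 in ESC. For these genes lung, heart and liver did not overlap with each other in any library.

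*Col1a1* was 3.76 ± 0.35 log2 units (SE) above the mean of the other tissues in lung (adjusted p = 1.3e-06, limma) and below it in liver, with a log2 difference of −4.59 ± 0.35 (adjusted p = 7.6e-08). *Col3a1* was higher by 4.32 ± 0.55 in lung (adjusted p = 2.0e-05) and 3.19 ± 0.55 in heart (adjusted p = 1.9e-04), and lower in cortex (log2 difference −3.23 ± 0.55, adjusted p = 1.6e-04). The type I fibre is made of 2 *Col1a1* chains for each *Col1a2* chain. At the level of RNA the ratio of *Col1a1* to *Col1a2* was 1.74 and 1.67 in heart, 1.53 and 1.43 in lung, 0.66 and 0.83 in kidney and 0.99 and 0.97 in DMSO fibroblasts.

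Type V collagen is a minor chain set that is mixed into type I fibrils. *Col5a1* read 44.7 and 45.4 TPM in lung, 37.6 and 24.2 in ESC and 29.2 and 34.2 in heart, and *Col5a2* 37.3 and 47.1 in lung and 15.1 and 18.6 in heart. *Col5a3* was the member whose replicates differed most in an organ, with 2.06 and 29.9 TPM in the kidney libraries against 26.3 and 31.1 in heart and 8.72 and 8.27 in liver. Of 27 collagen genes at 1 TPM in either kidney library, 2 had libraries more than 2-fold apart, and the other was *Col6a1*. These 2 kidney differences are named because of their values.

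Other fibrillar chains had another distribution. *Col11a1* and *Col11a2*, chains of the type XI fibrils of cartilage, and *Col24a1* were highest in cortex among the tissues. *Col11a1* read 12.6 and 12.2 TPM there and at most 0.16 in the other organs, a log2 difference of 5.80 ± 0.27 (adjusted p = 1.1e-09, limma). In DMSO fibroblasts *Col11a1* read 12.9 and 12.4 TPM, near its cortex level. *Col11a2* read 29.3 and 29.2 TPM in cortex and 11.0 and 7.10 in spleen. *Col24a1* read 10.2 and 9.19 in cortex and at most 1.11 in the other organs. *Col2a1*, the main chain of cartilage fibrils, was near 0 in most organs and reached 5.54 and 16.5 TPM in ESC, where it was 5.48 ± 0.29 log2 units higher (adjusted p = 2.7e-09).

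Type IV collagen occurs as paired genes. *Col4a1* and *Col4a2* lie head to head on chromosome 8 (mm10, 11198423 to 11312889 and 11312805 to 11449287), with 85 bases of overlap between their RefSeq spans, and *Col4a3* and *Col4a4* in the same way on chromosome 1 (82586921 to 82722059 and 82448419 to 82587034), with 114 bases. The α1 and α2 chains are found in basement membranes throughout the body, and the α3 and α4 chains in those of the kidney glomerulus and the lung alveolus. *Col4a1* read 434 and 540 TPM in lung, 248 and 254 in heart, 165 and 202 in kidney, 99.3 and 119 in spleen, 31.8 and 33.4 in cortex and 8.50 and 11.0 in liver. *Col4a2* had the same order of organs, with 424 and 500 in lung and 5.63 and 7.45 in liver.

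*Col4a3* read 134 and 137 TPM in kidney and 46.2 and 50.5 in lung, against at most 1.65 elsewhere, and *Col4a4* 108.2 and 102.5 in kidney and 34.1 and 38.8 in lung, against at most 3.50. No library outside these organs overlapped with them. The log2 difference in kidney was 6.92 ± 0.14 for *Col4a3* and 6.41 ± 0.14 for *Col4a4* (adjusted p = 1.9e-12 and 2.1e-12, limma), and *Col4a3* was also 5.18 ± 0.14 higher in lung (adjusted p = 4.2e-11). Within a pair the ratio of the chains varied less than their levels: *Col4a1* to *Col4a2* ran from 1.02 to 1.62 in lung, heart, kidney, spleen, liver and ESC and was 0.59 and 0.57 in cortex, and *Col4a3* to *Col4a4* was 1.24 and 1.34 in kidney and 1.35 and 1.30 in lung.

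Type VI collagen, a filament around cells in most connective tissues, is assembled from α1, α2 and one further chain. *Col6a1* read 254 and 278 TPM in lung, 93.1 and 106 in heart, 61.8 and 46.4 in spleen, 50.5 and 45.1 in cortex, 19.9 and 48.9 in kidney, 4.55 and 4.48 in liver and 3.99 and 0.77 in ESC. *Col6a2* read 121 and 127 in lung and 50.7 and 56.5 in heart, but 6.61 and 6.52 in cortex, where the ratio of *Col6a1* to *Col6a2* was 7.63 and 6.92 against 1.84 to 4.32 in the other groups. *Col6a3* read 51.7 and 54.4 in lung and 12.1 and 17.72 in heart. The chains that can take its place were highest in spleen or heart. *Col6a4* read 8.52 and 6.02 TPM in spleen (log2 difference 4.32 ± 0.26, adjusted p = 1.7e-08) and *Col6a6* 5.31 and 6.45 in heart (3.78 ± 0.28, adjusted p = 1.2e-07). *Col6a5* was highest in spleen, with 3.21 and 2.54 TPM.

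Other members had their highest tissue level in liver, heart, lung, cortex or ESC. The multiplexin *Col18a1*, whose C-terminal fragment is endostatin, read 291 and 313 TPM in liver, 111 and 113 in kidney, 158 and 126 in ESC and 4.56 and 4.16 in cortex, a log2 difference of 3.39 ± 0.08 in liver (adjusted p = 2.6e-12), and it was also called higher in ESC (2.10) and kidney (1.72). The other multiplexin, *Col15a1*, found at the basement membranes of muscle and capillaries, read 78.0 and 86.0 in heart (3.66 ± 0.14, adjusted p = 5.9e-10), and was also higher in lung (2.46) and kidney (1.60). The 4 transmembrane collagens were highest in lung, cortex or ESC. *Col13a1* read 63.7 and 66.1 TPM in lung and at most 4.32 in other libraries (5.43 ± 0.23, adjusted p = 1.4e-09), and *Col23a1* 48.9 and 48.03 (4.66 ± 0.11, adjusted p = 1.1e-11), with *Col23a1* also higher in cortex (1.78) and spleen (0.53). *Col17a1*, a chain of the hemidesmosome, read 7.32 and 3.80 TPM in ESC and 3.98 and 3.75 in lung, and was called higher in both (3.34 and 2.83). In spleen it read 2.08 and 1.28, against at most 0.56 in cortex, heart, kidney and liver. *Col25a1*, which is known to bind amyloid β, read 36.4 and 38.4 TPM in cortex and at most 0.43 elsewhere (7.28 ± 0.19, adjusted p = 3.9e-12).

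*Col19a1* read 10.3 and 9.41 TPM in cortex and at most 0.38 elsewhere (6.01 ± 0.09, adjusted p = 5.9e-14). In spleen the short-chain *Col8a2* read 20.7 and 13.9 (4.12 ± 0.20, adjusted p = 2.9e-09), *Col7a1*, the chain of anchoring fibrils, 8.95 and 7.46 (2.87 ± 0.21, adjusted p = 1.2e-07), and *Col14a1* 33.9 and 39.8. *Col14a1* was the 1 other collagen called higher in liver, at 15.9 and 18.7 TPM (1.06 ± 0.23, adjusted p = 8.7e-04), but the difference was 0.28 with adjusted p = 0.050 when both ESC libraries were left out, since ESC held 0.28 and 0.76 TPM.

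The summed level of 4 endothelial markers (*Pecam1*, *Cdh5*, *Kdr*, *Tek*) was 1640 and 1750 TPM in lung, 421 and 412 in heart, 142 and 144 in kidney, 184 and 144 in spleen, 48.7 and 46.0 in cortex and 28.2 and 39.7 in liver. The sum of 4 mural and smooth muscle markers (*Pdgfrb*, *Acta2*, *Myh11*, *Rgs5*) was 780 and 757 TPM in lung, 597 and 601 in heart, 585 and 403 in spleen, 207 and 236 in kidney, 155 and 148 in cortex and 56.1 and 45.7 in liver, and 4 fibroblast markers (*Pdgfra*, *Dcn*, *Lum*, *Thy1*) ranged over the organs from 154 in liver to 1115 in cortex, where *Thy1* made up nearly the whole sum. The stellate cell markers *Lrat* and *Des* gave 8.44 and 11.3 TPM in liver, and up to 1320 in heart, of which *Des* was nearly all. Their part in the collagen differences was not tested. In bulk tissue, fewer cells of a type and less RNA per cell cannot be told apart.

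The 2 ESC clones differed in the collagens more than in other genes. Of 28 collagen genes at 1 TPM in either clone, 17 were more than 2-fold apart, and 16 of the 17 were higher in the first clone. *Col4a1* read 174 and 28.7 TPM, *Col4a2* 107 and 17.9, *Col1a2* 3.40 and 0.19 and *Col5a2* 8.23 and 1.32, while *Col2a1* went the other way with 5.54 and 16.5. The clones were alike in *Col10a1*, at 75.7 and 65.7 TPM, *Col9a2*, at 35.5 and 32.6, and *Col18a1*. In the first clone *Acta2* read 25.6 and in the second 0.36 TPM, *Des* 24.6 and 4.47, and *Tek* 22.4 and 6.91. *Pecam1* (120 and 88.3), *Cdh5* (3.04 and 0.35) and *Myh11* (0.41 and 0.24) were also higher in the first clone. *Pdgfrb* (8.69 and 10.05), *Kdr* (0.34 and 0.85), *Lrat* (0.35 and 0.56) and *Rgs5* (0.26 and 0.33) were higher in the second. The part of endothelial, mural or stellate cells was not tested.

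*Col10a1*, known as a marker of hypertrophic cartilage, was 9.04 ± 0.11 log2 units higher in ESC than in the other tissues (adjusted p = 2.3e-14), the largest log2 difference of a collagen gene in the comparisons of 1 tissue with the others. It lies inside the span of *Nt5dc1* (chromosome 10, 34303609 to 34418589 in mm10), which read 21.0 and 17.5 TPM in ESC and 16.5 and 16.2 in lung, where *Col10a1* was below 0.01. The authors counted fragments by strand and shared those that overlap several genes equally between them. *Col9a2*, a chain of the fibril-associated type IX, was 6.33 ± 0.20 higher in ESC (adjusted p = 4.0e-11).

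The DMSO fibroblasts were then set against the mean of the 7 tissues. Of 41 collagen genes, 20 were higher and 20 lower, with 84.5% of all genes called, 37.1% higher and 47.4% lower, a median log2 difference of 0.20 for collagens and −0.25 for all genes. The higher ones were 7 of 11 fibrillar, 3 of 6 beaded filament, 3 of 3 short-chain, 2 of 4 basement membrane and 2 of 8 fibril-associated genes, with 1 each among the multiplexin, transmembrane and remaining genes. *Col6a1* read 1566 and 1494 TPM in DMSO fibroblasts and 1739 and 1710 after PladB, *Col1a1* 1092 and 1039 against 1056 and 1005, *Col1a2* 1100 and 1071 against 1272 and 1224, and *Col8a1*, a short-chain collagen of vessel walls and the corneal Descemet membrane, 1144 and 1135 against 1144 and 1103. All these values lay above those of every tissue library.

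*Col8a1* was 8.78 ± 0.62 log2 units higher in DMSO fibroblasts than in tissues (adjusted p = 5.6e-08), *Col2a1* 7.01 ± 0.28 (adjusted p = 4.4e-10) and *Col1a2* 6.18 ± 0.57 (adjusted p = 7.4e-07). *Col2a1* read 50.1 and 45.5 TPM with DMSO and *Col10a1* 19.4 and 18.4, both cartilage collagens. *Col5a2*, *Col6a2*, *Col12a1* and *Col16a1* were also above every tissue library, at 313 and 297, 635 and 605, 58.2 and 52.9, and 101 and 92.4 TPM with DMSO. *Col3a1*, at 92.6 and 90.6, was below lung and heart. *Col14a1*, *Col15a1* and *Col13a1* fell furthest, with log2 differences of −5.85 ± 0.23, −5.13 ± 0.14 and −4.69 ± 0.23 (adjusted p at most 2.5e-09), and *Col13a1* was listed at 0 in all 4 fibroblast libraries. In these libraries *Pecam1*, *Cdh5* and *Kdr* were below 0.04 TPM and *Tek* at most 0.17. Of the fibroblast markers, *Pdgfra* read 441 and 437 with DMSO, above every tissue library. The others were below heart: *Dcn* at 32.7 and 33.0 against 615 and 683, and *Lum* at 11.0 and 10.7 against 83.5 and 101. *Thy1* read 5.51 and 5.73 against 28.9 and 34.05.

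Genes that modify, process, bind and degrade collagen were given as a list of 48 measured genes. In lung 39 of them were higher and 2 lower than in the other tissues, beside 43.3% and 29.4% of all genes, and in DMSO fibroblasts 35 and 7, beside 37.1% and 47.4%. Liver had 5 higher and 39 lower, and 80.8% of all genes were lower there, so that its count was near the background. The counts were 19 and 12 in heart (19.4% and 60.7% of all genes), 21 and 14 in kidney (30.6% and 38.4%), 23 and 10 in spleen (45.1% and 34.7%), 10 and 24 in cortex (50.8% and 31.9%) and 15 and 18 in ESC (48.6% and 35.6%). With equal medians they became 32 and 2 in heart, 13 and 16 in spleen, 7 and 36 in cortex, 11 and 26 in ESC and 16 and 24 in liver. No shares over all genes are given for these. *Serpinh1*, the chaperone HSP47 that binds procollagen, read 2081 and 2096 TPM in DMSO fibroblasts, 348 and 431 in lung and 7.53 and 7.85 in liver. *Lox*, the oxidase that starts crosslinks, read 1113 and 1092 in DMSO fibroblasts, 29.5 and 34.7 in lung and 0.38 and 0.33 in liver. *P4hb*, a subunit of prolyl 4-hydroxylase and a general disulfide isomerase, was higher in liver, at 984 and 955 TPM (1.54 ± 0.06, adjusted p = 1.9e-10).

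After 4 h of PladB the levels of most expressed collagen genes moved little, while many other genes were lower. Over genes with a mean of at least 1 TPM in the fibroblasts, the median log2 difference between PladB and DMSO was −1.15 for 12744 autosomal genes and 0.10 for 23 collagen genes. Within 0.5 log2 units of no change were 20 of the 23 collagens (87.0%) and 24.5% of all genes. TPM values are shares of a library, so these are changes relative to the other transcripts and not amounts per cell.

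**Figure D2:**
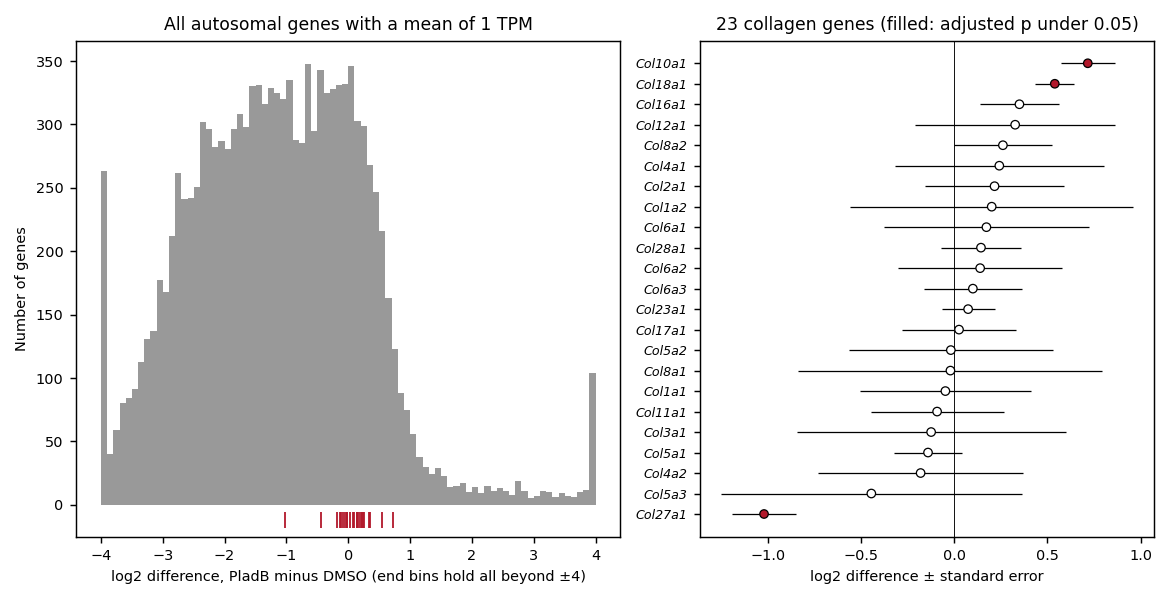
Left, histogram of the log2 difference in log2(TPM + 0.1) between PladB and DMSO fibroblasts for 12744 autosomal genes, with the 23 collagen genes as red marks below the axis. Right, the collagen genes with their standard errors from the limma fit to all groups, in which filled points passed an adjusted p of 0.05. The collagens lie between −1.02 and 0.72, at the upper side of the histogram.

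In the limma test 5 of 41 collagen genes were called, 2 higher and 3 lower, beside 53.6% of all genes (6.68% higher and 46.9% lower). This test took the spread of each gene from all 18 libraries, the ESC clones among them, and the count rose without those clones, as given below. *Col10a1* read 19.4 and 18.4 TPM with DMSO and 31.8 and 30.5 with PladB (log2 difference 0.72 ± 0.14, adjusted p = 9.3e-04), and *Col18a1* 175 and 169 against 252 and 248 (0.54 ± 0.10, adjusted p = 7.0e-04). Among genes at low levels, *Col27a1* went from 2.10 and 1.90 to 0.85 and 1.02 TPM (−1.02 ± 0.17, adjusted p = 2.3e-04), *Col20a1* from 1.07 and 0.86 to 0.36 and 0.47 (−1.04 ± 0.20, adjusted p = 7.2e-04) and *Col11a2* from 1.39 and 1.11 to 0.65 and 0.72 (−0.77 ± 0.24, adjusted p = 0.016). The treatments did not overlap in any of these 5 genes. *Col11a2* lost its call without the first DMSO library (−0.62, adjusted p = 0.12), without the first PladB library (−0.70, adjusted p = 0.086) and with a pseudocount of 1 (−0.41, adjusted p = 0.055).

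The count changed with the libraries in the fit. No share over all genes is given for the counts that follow. Without both ESC libraries, or without either, 10 collagens were called, 6 higher and 4 lower, while a fit to the 4 fibroblast libraries alone called 15 of 24, 10 of them higher. With the median of all genes set equal, which moved every difference up by 1.48 log2 units, 37 were higher and 0 lower (limma, adjusted p under 0.05). These 37 include 3 genes listed at 0 TPM in all 4 fibroblast libraries, and *Col20a1*, *Col27a1* and *Col11a2* turned to 0.45, 0.46 and 0.71. Of the abundant chains that were not called, *Col16a1* read 101 and 92.4 TPM with DMSO and 121 and 125 with PladB, *Col4a2* 371 and 353 against 323 and 316, and *Col1a1* 1092 and 1039 against 1056 and 1005, where the groups overlapped.

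Of the 48 collagen-related genes 7 rose and 7 fell after PladB, beside 6.68% and 46.9% of all genes. With equal medians, for which no share over all genes is given, 41 were higher and 0 lower. *P4hb* rose from 1203 and 1186 to 1760 and 1673 TPM (0.52 ± 0.08, adjusted p = 1.1e-04) and *Itgb1*, the β subunit of the collagen-binding integrins, from 1324 and 1328 to 1939 and 1855 (0.52 ± 0.17, adjusted p = 0.019). *Plod2*, a lysyl hydroxylase, fell from 66.1 and 64.0 to 27.2 and 27.3 (−1.25 ± 0.26, adjusted p = 0.0011), and the collagen receptor *Ddr1* from 90.3 and 88.6 to 28.2 and 28.3 (−1.66 ± 0.17, adjusted p = 2.9e-06). With equal medians *Plod2* turned to 0.23 (adjusted p = 0.34) and *Ddr1* read −0.18 (adjusted p = 0.28). *Pdgfra*, a fibroblast marker, read 441 and 437 TPM with DMSO and 82.8 and 82.6 with PladB. The other fibroblast markers went the other way. *Dcn* read 32.7 and 33.0 with DMSO and 46.0 and 46.8 with PladB, *Lum* 11.0 and 10.7 against 16.4 and 15.9, and *Thy1* 5.51 and 5.73 against 8.09 and 8.16.

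The collagen exons were short and mostly in frame. Of 445 collagen exons with at least 20 reads in both libraries of a group, 368 (82.7%) had a length divisible by 3 and 254 (57.1%) by 9, the length of a Gly-X-Y triplet, against 40.8% and 13.7% of 79547 exons of other genes. Exactly 54 bases, or 6 triplets, were found in 100 exons (22.5%), against 0.54% of other exons, and 45 bases in 27 (6.07%). The median length was 63 bases against 117, and 32 collagen exons (7.19%) had at most 30 bases, against 1.56%. These shares describe the annotated exons that entered the tables, which hold only exons with some skipping junction in the annotation or the reads.

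**Figure D3:**
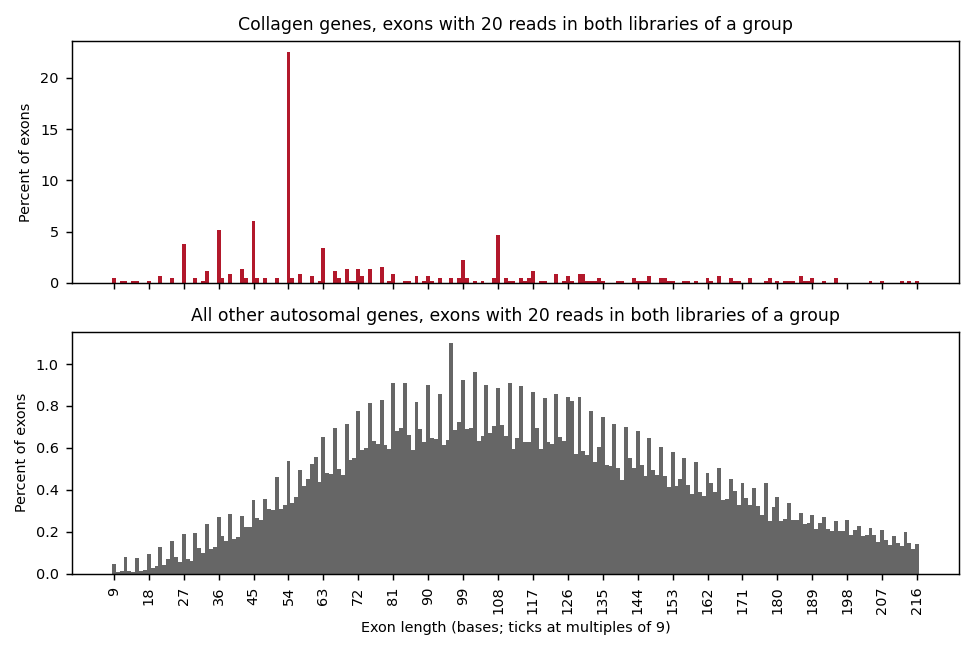
Lengths in bases of exons with 20 or more reads in both libraries of a group, as a percentage of all such exons, for 445 exons of collagen genes (top) and 79547 exons of other autosomal genes (bottom; the vertical scales differ). Collagen exons pile up at 27, 36, 45, 54, 63, 99 and 108 bases, with 22.5% at 54.

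Most of these exons were included almost always. In DMSO fibroblasts 232 of 243 collagen exons (95.5%) had a PSI above 0.9 in both libraries, against 88.9% of other exons. In lung 80 of 92 (87.0%) did so, in kidney 72 of 81 (88.9%) and in heart 35 of 41 (85.4%), against 78.5%, 81.2% and 74.1% of other exons. With PladB the share was 93.9%, against 79%. In spleen and cortex the collagen share was 72.1% and 73.3%, against 78.5% in both. In liver and ESC it was 74.1% and 74.2%, against 77.8% and 82.7%, so it was below that of other exons in these tissues too. Each exon was counted by its event with the most reads.

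Of the 445 collagen exons 26, in 10 genes, had a PSI between 0.1 and 0.9 in both libraries of a group by any of their events. Among the 79547 exons of other genes 10575 did so. By the event with the most reads, the collagen share was 16.7% in cortex, 16.4% in spleen, 11.1% in liver and 6.45% in ESC. Other exons had 11.6%, 9.37%, 9.04% and 6.27% there. In heart, kidney, lung, DMSO and PladB it was 7.32%, 7.41%, 5.43%, 3.7% and 4.08%, against 11.7%, 8.5%, 9.49%, 4.75% and 9.06%. Of the 26 collagen exons 23 (88.5%) had a length divisible by 3 and 14 (53.8%) by 9, close to the shares over all collagen exons. None of the 100 exons of 54 bases was among them. *Col13a1* had 6 of its 18 exons in this group, *Col6a3* 4 of 11, *Col16a1* 4 of 32, *Col25a1* 3 of 9 and *Col11a2* 3 of 4. *Col2a1* had 2, and *Col17a1*, *Col20a1*, *Col23a1* and *Col6a4* 1 each. In contrast *Col1a1* (24 exons), *Col1a2* (34), *Col3a1* (14), *Col4a1* (22), *Col4a2* (16), *Col5a2* (23) and *Col6a1* (22) had none.

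Whether inclusion differed among tissues was tested with a quasi-binomial F test moderated with limma, over events with 20 reads in both libraries of at least 2 tissues. A call needed an adjusted p under 0.05 (Benjamini-Hochberg) and a switch score, the largest difference in PSI between any pair of tissues, of at least 0.1. Of 80 collagen exons in 26 genes 6 were called, beside 9.49% of 40714 exons of all genes. The 6 lay in 4 genes, *Col13a1*, *Col16a1*, *Col6a3* and *Col23a1*, and all had lengths divisible by 3.

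**Figure D4:**
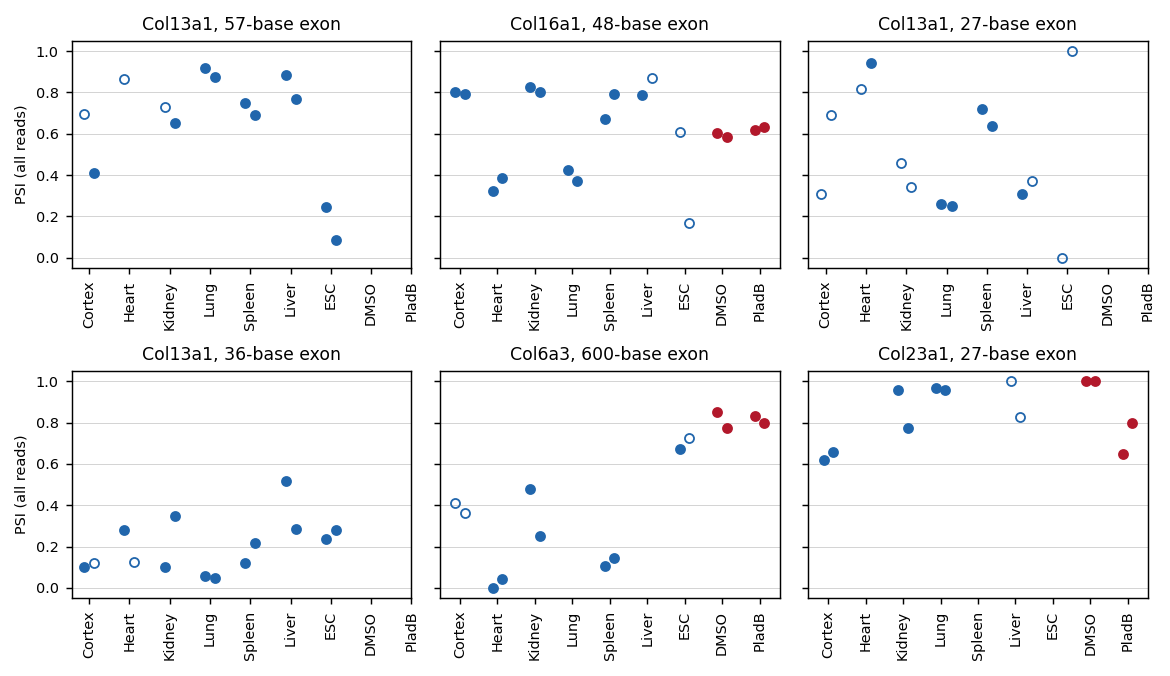
PSI from all reads for the 6 collagen exons called among tissues, with 1 point per library in tissues (blue) and fibroblasts (red), open where the library had fewer than 20 reads. The *Col16a1* exon is lower in heart and lung than in cortex and kidney, and the *Col6a3* exon is near 0 in heart and near 0.8 in fibroblasts.

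The clearest of them was a 48-base exon of *Col16a1*, a fibril-associated collagen (chromosome 4, 130073069 to 130073116, plus strand). Its PSI was 0.80 and 0.79 in cortex, 0.83 and 0.80 in kidney, 0.67 and 0.79 in spleen, 0.43 and 0.37 in lung and 0.33 and 0.39 in heart, on 123 to 505 reads. Cortex and kidney did not overlap with lung and heart, with a switch score of 0.46 (adjusted p = 8.7e-07). Fibroblasts lay between, at 0.60 and 0.58 with DMSO.

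*Col13a1*, a transmembrane collagen of cell adhesion sites, held 3 of the 6 exons, all on the minus strand of chromosome 10. Its 57-base exon (61891208 to 61891264) had a PSI of 0.92 and 0.88 in lung on 2260 and 1961 reads, 0.75 and 0.69 in spleen, 0.88 and 0.77 in liver and 0.24 and 0.09 in ESC, the last on 25 and 28 reads. The switch score was 0.73 (adjusted p = 2.0e-04). With a minimum of 50 reads, which leaves lung and spleen alone, the difference was 0.18 and was not called (adjusted p = 0.16).

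A 27-base exon of *Col13a1* (61905254 to 61905280) had a PSI of 0.26 and 0.25 in lung and 0.72 and 0.64 in spleen (switch score 0.43, adjusted p = 0.0013), and lost its call without the first spleen library (adjusted p = 0.19). A 36-base exon (61853357 to 61853392) was used rarely in lung, at 0.06 and 0.05 on over 2000 reads, and more in liver, at 0.52 and 0.29 on 31 and 54 reads, and in ESC, at 0.23 and 0.28 (switch score 0.35, adjusted p = 2.6e-04). So lung, the organ in which *Col13a1* was highest, had the 57-base exon mostly in and the 27-base and 36-base exons mostly out. A 99-base exon (61862015 to 61862113) was intermediate in every tissue, between 0.30 and 0.74, and was not called (switch score 0.31, adjusted p = 0.17).

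The 600-base exon of *Col6a3* (chromosome 1, 90813215 to 90813814, minus strand) belongs to the run of long exons that encode the von Willebrand factor A domains of this chain. Its PSI was 0 and 0.04 in heart on 60 and 107 reads, 0.11 and 0.14 in spleen and 0.48 and 0.25 in kidney, against 0.85 and 0.78 in DMSO fibroblasts (switch score among tissues 0.34, adjusted p = 0.0049, and 0.078 with a replicate block, where the call was lost). The *Col23a1* exon of 27 bases (chromosome 11, 51527868 to 51527894, plus strand) had 0.62 and 0.66 in cortex and 0.97 and 0.96 in lung, which did not overlap, and 0.96 and 0.77 in kidney (switch score 0.32, adjusted p = 0.0014).

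The following exons were not called among tissues or could not be tested there, and are named because of their values. In cortex, *Col25a1* had exons of 18, 36 and 27 bases (chromosome 3, starts 130418801, 130575375 and 130584700) with PSI values of 0.84 and 0.81, 0.59 and 0.61, and 0.18 and 0.24, on 206 to 404 reads. *Col2a1* is known for a IIA form of progenitor cells and a IIB form of mature cartilage that differ by an exon near the 5′ end. In fibroblasts its 207-base exon (chromosome 15, 98000400 to 98000606) was at 0.80 and 0.83 with DMSO. A 45-base exon of *Col16a1* (130081435 to 130081479) was at 0.77 and 0.74 in DMSO fibroblasts and between 0.96 and 0.99 in heart, kidney, lung and spleen (switch score among tissues 0.09, adjusted p = 0.78).

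No collagen exon was called after pladienolide B. Of 242 collagen exons in 20 genes tested between PladB and DMSO, 0 were called (quasi-binomial F test moderated with limma), beside 6.39% of 41485 exons of all genes, and 26 had an unadjusted p under 0.05. The median absolute difference in PSI was 3.2e-04 for collagens and 0.0074 for all exons, and a difference of 0.1 or more was seen in 1 collagen exon (0.41%) and in 8.76% of all exons. That exon was the 27-base exon of *Col23a1*, at 1.00 and 1.00 with DMSO and 0.65 and 0.80 with PladB on 20 to 28 reads (difference −0.28, adjusted p = 0.068). The 48-base *Col16a1* exon read 0.60 and 0.58 with DMSO and 0.62 and 0.63 with PladB. A single collagen intron could be tested for retention and was not called (0 at an unadjusted p under 0.05), beside 38.5% of 1606 introns.

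These PSI values are read from spliced transcripts that were present after 4 h. Transcripts made before and during the treatment cannot be told apart in them.

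In a hybrid, reads that carry a difference between the parental genomes can be given to an allele, and both alleles share 1 nucleus. Allelic differences in PSI were tested in each group with 20 reads per allele and library. Imprinted genes checked the allele columns: in DMSO fibroblasts the maternal *Meg3* had 99.6% C57BL/6J reads and the paternal *Mest* 0.09%. In ESC they could not serve as a check. *Meg3* had 34.7% of its reads in the column taken as C57BL/6J, and the paternal *Mest*, *Sgce* and *Peg3* had 45.7%, 57.9% and 73.7%. The ESC columns were taken to have the same order. Of 14 to 65 collagen exons tested per tissue, 1 was called in lung, 1 in spleen and 0 in the other 5 tissues, and in fibroblasts 1 of 88 with DMSO and 2 of 160 with PladB. Over all genes the called share was 1.83% for lung, 1.56% for spleen, 1.88% with DMSO and 1.59% with PladB, and 1.73% for cortex, 1.81% for heart, 1.76% for kidney, 1.22% for liver and 0.28% for ESC. At an unadjusted p under 0.05 the tissues with 0 calls held 4 exons in kidney, 2 in cortex, 2 in ESC, 1 in liver and 0 in heart (quasi-binomial F test).

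The largest allelic difference was in *Col16a1*, in an exon of 100 bases near its 5′ end (chromosome 4, 130049327 to 130049426) and 1510 bases after the RefSeq start of the gene. Its length is no multiple of 3. With DMSO its PSI was below 0.01 in both libraries on the C57BL/6J allele, on 987 and 906 reads, and 0.53 and 0.52 on the SPRET/EiJ allele, on 352 and 286 reads. With PladB it was 0.01 and 0.01 against 0.59 and 0.56. The alleles did not overlap, and the difference was −0.52 with DMSO (adjusted p = 2.1e-05) and −0.57 with PladB (adjusted p = 5.0e-08). With the library as a block the call held with DMSO and was lost with PladB, where adjusted p was 0.083.

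In tissues this exon could not be tested, as the C57BL/6J allele had at most 17 reads in any library. From all reads its PSI was 0.34 and 0.35 in lung, 0.45 and 0.61 in cortex and 0.20 and 0.22 in heart, but from the allelic reads together it was 0.69 in lung, 0.77 in cortex and 0.50 in heart, so that the allelic reads did not represent all reads there. With DMSO the PSI was 0.07 from all reads and 0.11 from the allelic reads.

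In *Col6a3* the exon of 603 bases (chromosome 1, 90821802 to 90822404) was included more from the C57BL/6J allele, at 0.76 and 0.73 against 0.40 and 0.39 after PladB (difference 0.35, adjusted p = 0.0034) and at 0.70 and 0.69 against 0.51 and 0.43 with DMSO (0.23, adjusted p = 0.070). With a library block the PladB call was lost (adjusted p = 0.27). In lung the 27-base exon of *Col13a1* was at 0.33 and 0.31 on the C57BL/6J allele and 0.14 and 0.14 on the SPRET/EiJ allele, on 207 to 271 reads (0.18, adjusted p = 0.032, with the block 0.36).

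In spleen an exon of 212 bases in *Col6a4* (chromosome 9, 105995921 to 105996132, minus strand) was at 1.00 and 1.00 on the C57BL/6J allele, on 269 and 122 reads, and 0.79 and 0.70 on the other, on 303 and 186 reads (0.25, adjusted p = 0.023, with the block 0.39). In cortex the 18-base exon of *Col25a1* was at 0.94 and 0.90 against 0.60 and 0.69, without overlap, and was not called (0.27, adjusted p = 0.076). In a model with an interaction, 0 of 37 collagen exons differed in their allelic effect among tissues (2 at an unadjusted p under 0.05; 0.0818% of all exons called) and 0 of 59 between treatments (1 at an unadjusted p under 0.05; 0.0488% of all exons called).

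**Figure D5:**
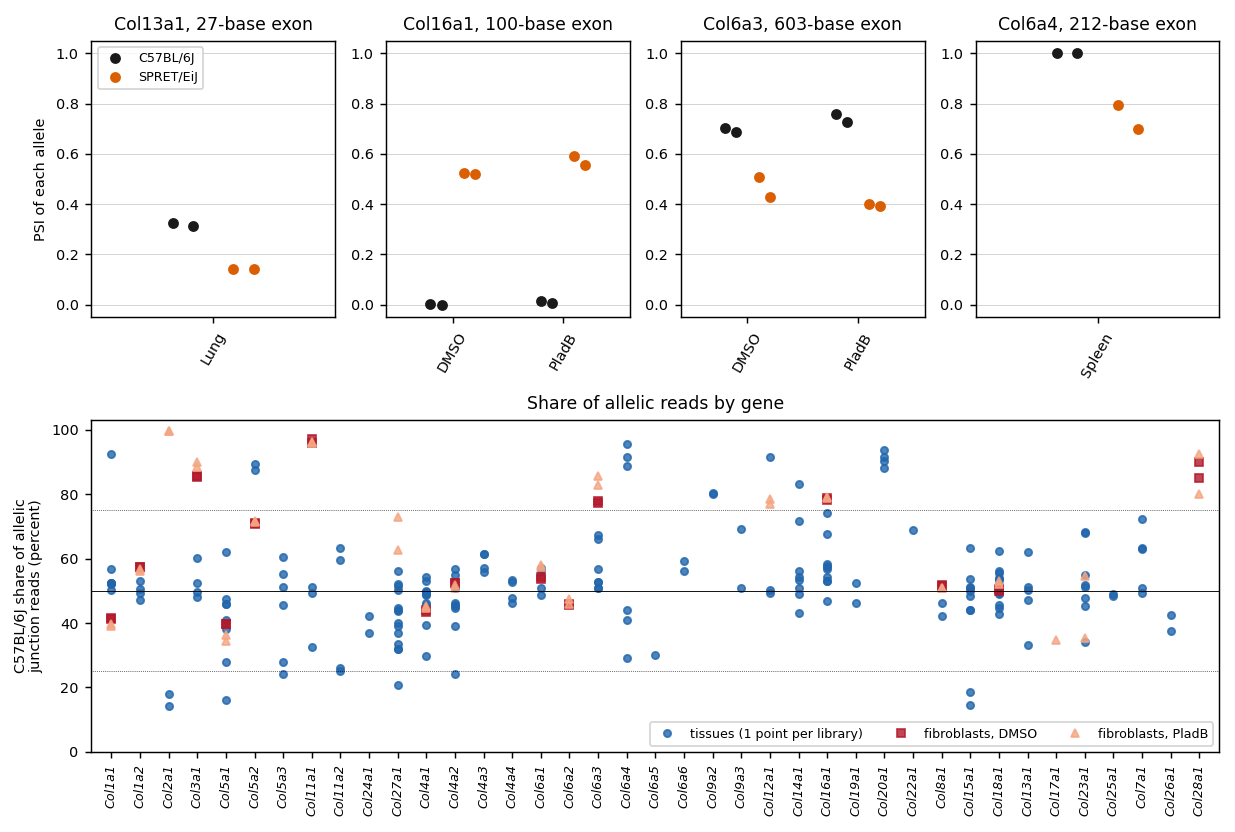
Top, PSI of the C57BL/6J (black) and SPRET/EiJ (orange) allele in each library, for the 4 collagen exons with an allelic call and in the groups with 20 reads per allele and library. Bottom, median share of C57BL/6J among the allelic junction reads of each collagen gene, with 1 point per library and exons of at least 40 allelic reads, a line at 50% and dotted lines at 25% and 75%. *Col11a1*, *Col3a1*, *Col6a3* and *Col16a1* lie above 75% in fibroblasts, and *Col15a1* lies below 25% in lung.

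The same junction reads give the share of each allele in a gene's transcripts. This was computed after the data had been seen, as the median over exons with at least 40 allelic reads, and is given without a test. Over all genes the median C57BL/6J share was between 50% and 50.8% in every library. A share at or beyond 25% or 75% was found in 9.15% and 9.14% of all genes in the DMSO libraries and 12.2% and 12.2% with PladB, and in both libraries of 5 of 15 collagen genes with DMSO and 7 of 19 with PladB. Among the tissues such genes numbered 2 of 21 in lung, 2 of 8 in ESC, 1 of 16 in kidney and 1 of 10 in cortex, and 0 of 11, 0 of 16 and 0 of 5 for heart, spleen and liver. The share over all genes was 6.25% and 7.03% in the lung libraries, 8.72% and 10.1% in ESC, 6.93% and 6.87% in kidney and 3.51% and 3.55% in cortex. It was 6.45% and 6.62% in heart, 6.05% and 5.62% in spleen and 10.3% and 7.86% in liver.

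In DMSO fibroblasts *Col11a1* had 97.1% and 96.0% of its reads from C57BL/6J over up to 3 exons, *Col3a1* 85.3% and 85.6% over 1, *Col16a1* 78.9% and 78.1% over up to 18 and *Col6a3* 77.9% and 77.3% over up to 7. With PladB *Col2a1* had 99.7% and 99.6% over 2 exons. The same genes lay nearer to even in organs: *Col11a1* had 51.3% and 49.3% in cortex, and lung had 48% and 49.6% for *Col3a1*, 53.2% and 57.6% for *Col16a1* and 50.8% and 52.6% for *Col6a3*. Kidney leaned to C57BL/6J, with 74.3% and 67.6% for *Col16a1* and 67.3% and 66.0% for *Col6a3*, each over 1 exon. At the 3 *Col16a1* exons of 48, 33 and 45 bases the share ran from 49.9% to 62.2% in lung and from 75.6% to 80.2% in the DMSO fibroblasts. At the 100-base exon, whose inclusion differed between alleles, the share was 13% and 12.3% in lung and 73.7% and 76% with DMSO.

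Other abundant fibroblast collagens were near even, with *Col8a1* at 51.4% and 51.7%, *Col6a1* at 53.7% and 54.2%, *Col4a1* at 43.4% and 44.2% and *Col18a1* at 50.6% and 50.1%, while *Col1a1* at 41.6% and 41.2% and *Col5a1* at 39.6% and 39.8% leaned to SPRET/EiJ. In lung *Col15a1* had 14.5% and 18.6%, and 51.1% and 53.6% in heart. At the 1 *Col15a1* exon with enough reads in both, the share was 18.4% and 20.3% in lung against 51.0% and 49.5% in heart. In the ESC clones *Col9a2* stood at 79.9% and 80.5% and *Col2a1* at 18% and 14.3%, by a column order that the imprinted genes did not check in ESC.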

How the data were processed

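The authors aligned paired RNA-seq reads with HISAT2 2.0.1 to C57BL/6J (mm10) and SPRET/EiJ genomes and gave reads to an allele by edit distance. They counted junction reads per event with rMATS on Ensembl 74, and the deposited read counts are lists of both replicates. The deposited effective lengths of both forms are scores written by rMATS. TPM values were made by the authors from featureCounts on all reads. Deposited inclusion levels, inclusion differences, p-values and FDR are the authors' own comparisons and were not used. The authors trimmed longer tissue reads to 76 bases, the length at which spleen, lung and ESC were read. The effective lengths show longer reads in fibroblasts, so PSI of tissues and fibroblasts was not tested against each other.

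Members and lists were chosen with earlier results of these data known. Named members are 12 abundant chains, the 3 called genes with the largest log2 difference in each direction of a contrast, and called exons, and further members are named because of their values. Sex chromosomes were left out. TPM was tested with limma 3.58.1 (R 4.3.3, trend) on log2(TPM + 0.1), for genes with 1 TPM in at least 2 libraries, over all 9 groups. PSI was tested with a quasi-binomial model in Python 3.11.15, its dispersion moderated by squeezeVar of limma toward a prior that follows depth, and at least 1. Benjamini-Hochberg adjustment ran over all autosomal events, and an exon is given by its event with the most reads. Allelic events needed a PSI within 0.1 of that from all reads. Both models were tested on simulated data, in which the allele by tissue interaction gave a larger share of false calls than its threshold allows. Counting error alone sets the precision of low-read PSI, and the depth behind TPM is unknown.

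Both alleles of a library come from the same animal or culture, so the library is a block in an alternative. The correlation of their replicate differences in PSI was between 0.04 and 0.42 over the 9 groups. Replicates in the lists were matched to libraries by position, and gene by gene the replicate ratio of junction reads followed that of TPM (Pearson's r across genes from 0.68 to 0.98). RefSeq positions are from GRCm38.p6.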

Additional observations from a re-analysis of the deposited data

How the results depend on the processing

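The total of called collagens in each tissue and in fibroblasts, higher and lower together, stayed within 1.5 times its value under a pseudocount of 1, other filters on low values, equal medians, a replicate block, and without both ESC libraries. The PladB count of 5 collagens became 37 with equal medians, 15 in the fibroblasts alone and 10 without both ESC libraries (an alternative added after the data were seen), and between 4 and 10 without 1 library, with 10 when either ESC library was left out. The cause was not tested, and no share over all genes is given for these counts. With equal medians *Col20a1*, *Col27a1* and *Col11a2* changed sign, to 0.45, 0.46 and 0.71. The 6 exons called among tissues were 3 with at least 50 reads, by fewer tissues, and 5 to 6 without 1 library. With the library as a replicate block, allelic calls were 0 in lung, 0 in spleen and 0 with PladB, and 1 with DMSO. The organs came from 2 animals, but the sources used here do not say whether a replicate number marks an animal. Replicate differences in TPM correlated between 0.02 and 0.17 over the 15 pairs of organs, 4 of them above 0.1, and at −0.01 between treatments. Among tissues and between treatments the replicate block changed no count by over 1.5 times, with 5 of the 6 exons still called among tissues, without the *Col6a3* exon of 600 bases (adjusted p = 0.078). Without 1 library no allelic test is left, and exons with a difference of 0.1 or more numbered 4 to 4 in cortex, 1 to 1 in heart, 0 to 1 in kidney, 2 to 2 in lung, 2 to 5 in spleen, 1 to 3 in ESC, 2 to 5 with DMSO and 3 to 3 with PladB. With at least 100 allelic reads 4 of 14 collagen genes were outside 25% to 75% with DMSO and 6 of 16 with PladB. Over all genes the share was 7.62% and 7.64% in the DMSO libraries and 11.4% and 11% with PladB.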
